A study of Schizosaccharomyces pombe with 21 samples.

Results

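Poly(A)+ RNA of fission yeast (*Schizosaccharomyces pombe*) cells labelled as knockouts of *ecl1*, *ecl2* and *ecl3* (*ecl123*Δ) was compared at 8 h and 0 h of phosphate starvation. The 8 h cells were in phosphate-free ePMGT, a synthetic medium that supplies glutamate, thiamine, adenine, uracil and a mix of amino acids. The 0 h cells were in logarithmic growth in YES, a rich yeast extract medium. Each time point had 3 biological replicate libraries of strain ASY136, of the 21 libraries at 7 time points in the series, and the genes compared were the 5863 of 6988 listed genes with a mean normalised count of at least 100 at 8 h or at 0 h. All cells are labelled as carrying the *ecl1*, *ecl2* and *ecl3* deletions, and no wild-type cells are among the samples. Per the study, all its strains also carry mutations in *leu1*, *ura4*, *his3* and *ade6*, and ASY136 is of the single mating type h−. The 8 h cells differ from the 0 h cells both in phosphate and in the other components of the medium, which cannot be told apart here.

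Fission yeast responds to a lack of phosphate by turning on the PHO regulon, a set of genes for a secreted acid phosphatase (*pho1*), a phosphate transporter (*pho84*) and a glycerophosphodiester transporter (*tgp1*) that depend on the transcription factor Pho7. In cells with enough phosphate, transcription of a long non-coding RNA (lncRNA) upstream of each of these genes interferes with the mRNA promoter. Cells short of phosphate also stop dividing, recycle phosphate from nucleotides, phospholipids and polyphosphate, and cut back on ribosomes, whose RNA holds much of the phosphate of the cell. The Ecl proteins are small proteins that lengthen chronological lifespan when overproduced.

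Levels are the authors' means of 3 libraries, as counts divided by a size factor for each library. A gene is called higher or lower where the 8 h mean is at least 2-fold above or below the 0 h mean, without a test, since the columns used hold the mean alone. The summed means were 20331922 at 8 h and 27176556 at 0 h, from libraries of about 24100000 counted reads at 8 h and 25900000 at 0 h, as estimated from the size factors. At a mean of 100, which stands for about 353 reads at 8 h and 286 reads at 0 h, counting error was 5.32% at 8 h and 5.91% at 0 h. In 488 genes with an 8 h mean from 100 to 300, whose 3 library values could be worked out from the digits of the mean, the highest library was a median 1.26 times the lowest. The same ratio at 0 h was 1.24 in 257 genes. The 95th percentile of that ratio was 1.70 at 8 h and 1.69 at 0 h, so most low-abundance genes varied between libraries of a time by less than the 2-fold limit.

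Of the 5863 genes, 1249 were higher at 8 h (21.3%) and 1003 were lower (17.1%). At least 4-fold differences were seen in 527 genes above and 277 genes below their 0 h mean. The 4918 protein-coding genes held 750 that were higher (15.3%) and 947 that were lower (19.3%), with a median log2 ratio of −0.19. Counts in the lists of protein-coding genes below stand against these shares. The median over all genes compared was −0.05. With both times scaled to the same summed total, every log2 ratio shifted by 0.42, and the counts became 1827 higher and 579 lower. Of the genes compared, 417 entered through their 8 h mean alone, of which 360 were called higher, and 61 entered through their 0 h mean alone, of which 42 were called lower. Among the 5385 genes with a mean of at least 100 at both times, 889 were higher (16.5%) and 961 lower (17.8%). The plot of 8 h against 0 h means shows ribosomal protein genes as a block below the diagonal and the phosphate and stress genes scattered above it.

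**Figure D1:**
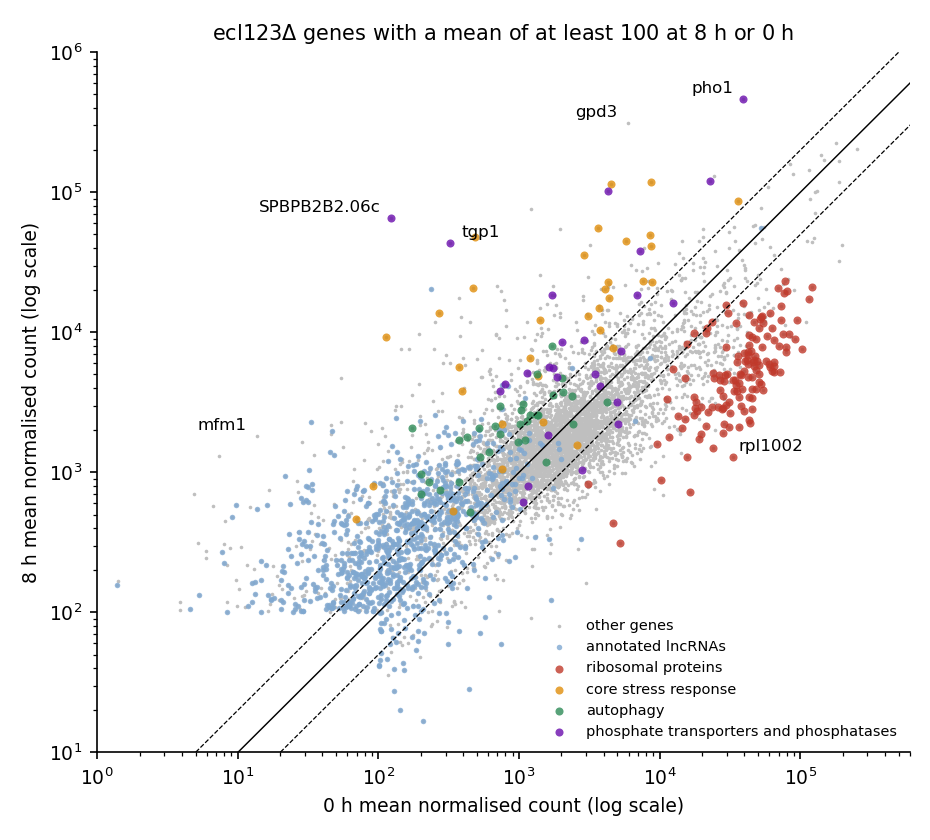
Mean normalised counts of each gene at 8 h without phosphate (vertical, log scale) and at 0 h in YES (horizontal, log scale), each point the authors' mean of 3 libraries. The solid line marks equal means and the dashed lines a 2-fold difference, and the list genes are coloured. Of 138 ribosomal protein genes 134 lie at or under the lower dashed line, while SPBPB2B2.06c, *tgp1* and *pho1* stand far above the upper one.

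At the limits of the selection, SPCC13B11.03c with means of 100.2 at 8 h and 45.4 at 0 h was just inside the minimum of 100, and SPNCRNA.895 with 99.7 and 39.1 was just outside it. At the fold limits, *meu10* (777 at 8 h and 389 at 0 h) was just inside and *cao1* (6816 and 3415) just outside on the higher side. On the lower side *emc4* (1580.4 and 3161) was just inside and *ser1* (8857 and 17715) just outside.

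The deleted genes were examined as a check of the genotype. *ecl3* had a mean of 2.09 at 8 h and was listed at 0 at 0 h. *ecl1* averaged 1703.3 at 8 h and 4095 at 0 h, a log2 ratio of −1.27, and *ecl2* had 2637 at 8 h and 2326 at 0 h, a log2 ratio of 0.18. Whole-gene counts cannot separate the reading frame from flanking transcribed sequence, so the *ecl1* and *ecl2* values leave those deletions unchecked, and only the *ecl3* values match the label.

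All 3 genes of the PHO regulon were higher at 8 h. *pho1*, which encodes the cell surface acid phosphatase, had a mean of 463501 at 8 h and 39182 at 0 h, up 11.8-fold, and became the most abundant transcript by read share, with 2.28% of all normalised counts at 8 h and 0.144% at 0 h. *tgp1*, encoding the glycerophosphodiester transporter, had 43316 at 8 h and 323 at 0 h, up 134-fold. *pho84*, the inorganic phosphate transporter gene beside *pho1*, had 120448 and 22913, up 5.26-fold. The increases thus differed widely, with the gene that started lowest, *tgp1*, up the most. On the log2 scale against the same 0 h means, *pho1* stood at 3.08, 3.56 and 3.76 at 4, 8 and 12 h, *tgp1* at 6.71, 7.07 and 7.51, and *pho84* at 2.03, 2.39 and 2.54. The mRNA of the activator gene *pho7* was not called, with means of 909.7 at 8 h and 1729 at 0 h (log2 ratio −0.93).

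The lncRNAs that neighbour these genes were not called in either direction at 8 h. *nc-pho1* (also named *prt*), upstream of *pho1*, had 149 at 8 h and 161 at 0 h, a log2 ratio of −0.11. Its library values were 132, 154 and 163 at 8 h and 141, 164 and 179 at 0 h. The groups overlapped. *prt2*, upstream of *pho84*, had 619 at 8 h and 864 at 0 h (−0.48), and *nc-tgp1*, upstream of *tgp1*, had 925 and 646 (0.52). All 3 had been lower at 4 h, at log2 ratios to 0 h of −1.37 for *nc-pho1*, −1.61 for *prt2* and −1.43 for *nc-tgp1*, and stood at −0.12, −0.34 and 0.97 at 12 h. The annotation has each of these lncRNAs overlap the gene it precedes, so some of its counts may be reads of that gene, and how overlaps and strand were handled in counting is unknown.

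Phosphate transporter mRNAs were mostly upregulated. Of 7 listed transporter genes 5 were higher and 1 was lower, against 15.3% and 19.3% of protein-coding genes, with a median log2 ratio of 2.39. Apart from *tgp1* and *pho84*, *pho842* had 18618 at 8 h and 1718 at 0 h, up 10.8-fold, *pho841* had 37967 and 7199, up 5.27-fold, and SPBC1703.13c, annotated as an inorganic phosphate transporter, had 18555 and 6931, up 2.68-fold. *pho843*, a further member of the Pho84 family, went the other way, with 1047 at 8 h and 2803 at 0 h (log2 ratio −1.42). *plt1* was not called (log2 ratio 0.12).

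Of 19 genes for phosphatases, nucleotidases and phosphodiesterases, which release phosphate from organic molecules, 11 were higher and 1 was lower, with a median log2 ratio of 1.59. The study describes SPBPB2B2.06c and SPAC1039.02 as genes for extracellular nucleotidases, and RefSeq lists both as phosphoprotein phosphatases. SPBPB2B2.06c had the largest increase of all protein-coding genes, with 65356 at 8 h and 123 at 0 h, up 533-fold. SPAC1039.02 had 102179 and 4284, up 23.8-fold. Nucleotidase mRNA was thus raised from both a very low and a moderate starting level. Per the study, both genes also rose, to a lesser extent than in starvation, in wild-type cells moved to ePMGT with phosphate. SPAC24B11.05, a pyrimidine 5′-nucleotidase gene, was up 5.42-fold, with 4300.2 at 8 h and 793 at 0 h. The other called genes were SPAC17G6.03 (5.22-fold), *pgc1* and *gde1*, which encode glycerophosphodiester phosphodiesterases (4.52-fold and 3.19-fold), SPBC713.07c (polyphosphatase, 4.17-fold), *npp1* (nucleotide pyrophosphatase, 3.44-fold), *pho8* (alkaline phosphatase, 3.01-fold) and SPBC21H7.03c (inositol polyphosphate phosphatase, 2.59-fold). *pho4*, the acid phosphatase gene repressed by thiamine, was lower, with 2198 at 8 h and 5086 at 0 h (log2 ratio −1.21).

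**Figure D2:**
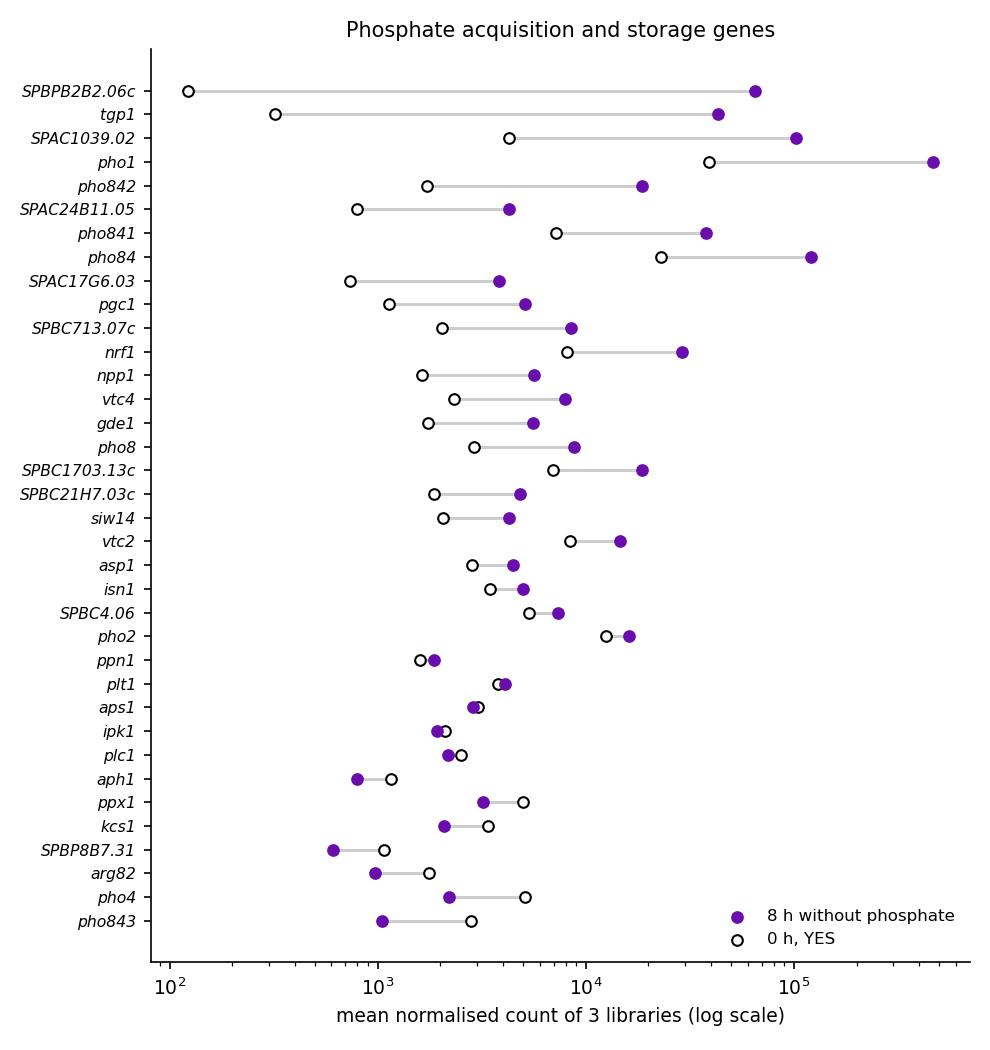
Mean normalised counts at 8 h without phosphate (filled) and at 0 h in YES (open), on a log scale, for the phosphate transporter, phosphatase and polyphosphate list genes in order of their ratio. The top 8 genes, from SPBPB2B2.06c to *pho84*, lie 5.26-fold or more above their 0 h mean, and *pho843* and *pho4* lie lowest in the order.

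Inositol pyrophosphates signal phosphate status and polyphosphate stores phosphate. Of 10 genes for their synthesis and turnover 3 were higher and 0 were lower. *vtc4*, the polyphosphate polymerase subunit, was up 3.40-fold (7942 at 8 h and 2333 at 0 h), and *nrf1*, of the same vacuolar complex, was up 3.55-fold (28957 and 8166). *siw14*, an inositol pyrophosphatase gene, was up 2.08-fold. The kinase gene *asp1* (0.65) and the phosphatase gene *aps1* (−0.08) had log2 ratios inside the limits. Of 12 phospholipase genes 2 were higher, *plb5* (log2 ratio 3.28) and *cld1* (1.49, a cardiolipin phospholipase), and 1 was lower, the abundant *plb1* (−1.30, with 44987 at 8 h and 110943 at 0 h). The higher share was thus near the 15.3% and the lower share under the 19.3% of all protein-coding genes.

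Autophagy and vacuolar protease mRNAs were higher together. Of 33 autophagy genes 23 were higher and 0 were lower, with a median log2 ratio of 1.23 against −0.19 for all protein-coding genes. *fun14*, a mitochondrial outer membrane protein gene, had 2087 at 8 h and 173 at 0 h, up 12.1-fold. *atg43*, the mitophagy receptor gene, had 8033 and 1707, up 4.71-fold, and the sorting nexin genes *atg2402* and *atg20* were up 4.89-fold and 4.60-fold. The rise covered receptors, nexins and the core conjugation protein *atg8* (5039 at 8 h and 1338 at 0 h, log2 ratio 1.91). Of 7 vacuolar protease genes 4 were higher, with *isp6* up 8.50-fold (15623 and 1838), *psp3* up 3.38-fold, *ape4* up 2.49-fold and *ppp16* up 2.24-fold. Of 33 proteasome genes 0 were higher and 1, *rpt3* (3744 at 8 h and 7505 at 0 h), was lower, with a median of −0.24, although with equal summed totals most calls in this list turned to the higher side.

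Ribosomal protein mRNAs were lower with few exceptions. Of 83 large subunit genes 80 were lower and 0 higher, with a median log2 ratio of −2.91, and of 55 small subunit genes 54 were lower and 0 higher, with a median of −2.77. Together they took 4.36% of all normalised counts at 8 h and 21.1% at 0 h. *rpl1002* had 1281 at 8 h and 33274 at 0 h, a log2 ratio of −4.70 and the largest decrease of any protein-coding gene. *rpp203*, for acidic protein P2, had 723 and 16553 (−4.52), *rps1402* had 2245 and 43878 (−4.29) and *rps1502* had 2350.0 and 43317 (−4.20). The other ribosomal genes among the 12 largest decreases were *rps2201* (−4.12), *rpl3002* (−4.06), *rpp101* (−4.004), *rpl1801* (−4.002), *rpl2702* (−3.89) and *rpl803* (−3.88), so that 10 of the 12 were ribosomal. Next among small subunit genes came *rps602*, for protein S6 (−3.78).

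The ribosomal protein share of counts was 21.1%, 4.78%, 4.36% and 6.56% at 0, 4, 8 and 12 h and 12.7% at 48 h. For 117 of the 138 genes the mean at 8 h was the lowest of the 7 time points, and for the other 21 the lowest was at 4 h. Most ribosomal proteins are made from duplicated genes. In 48 such pairs the log2 ratios of the paired genes differed by a median of 0.56, and in 13 pairs by at least 1. The widest gap was between *rpl1002* (−4.70) and *rpl1001* (−1.75), followed by *rpl35A01* (−3.56) and *rpl35A02* (−0.91), named because of this gap. Reads of near-identical copies can be assigned to either gene or dropped, so values of single copies are uncertain, and the total of a pair less so.

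The machinery that makes ribosomes and uses them was also downregulated. Of 96 ribosome assembly genes 67 were lower and 0 higher (median log2 ratio −1.49). The U3 snoRNP protein gene *utp4* had 984 at 8 h and 5708 at 0 h (−2.54), the ribosome biogenesis gene *tsr1* 986 and 5375 (−2.45), and *nan1* and *rrp5* stood at −2.33 and −2.32. Of 47 cytosolic translation factor genes 36 were lower (median −1.70). *tif1*, for eIF4A, had 9225 at 8 h and 85748 at 0 h (−3.22), *tif213* (eIF2 gamma) stood at −2.81, the initiation helicase gene *sum3* at −2.80 and *sce3* at −2.37. Against this pattern, 1 translation factor gene was higher, *tif1102*, annotated as eIF1A-like, with 2462 at 8 h and 1138 at 0 h (up 2.16-fold).

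Cytosolic and mitochondrial translation genes were counted apart. Of 21 cytosolic aminoacyl tRNA synthetase genes 20 were lower, with a median log2 ratio of −1.96, led by *prs1* (−2.97, with 3127 at 8 h and 24584 at 0 h), *mrs1* (−2.66), *lrs1* (−2.58) and *vrs1* (−2.22). Of 14 mitochondrial synthetase genes 2 were lower, SPAC4G8.09 (−1.72) and *mse1* (−1.12), with a median of −0.56. Likewise 6 of 75 mitochondrial ribosomal protein genes were lower, led by *mrpl20* (−1.75), *mrps26* (−1.16), *nam9* (−1.16) and *mrps9* (−1.14), and the median was −0.27, a list whose calls turned to the higher side under both other scalings. Both mitochondrial lists had a smaller share of lower genes than the 19.3% of all protein-coding genes. The log2 ratios of the synthetase lists overlapped, from −2.97 to −0.89 for cytosolic and from −1.72 to 0.51 for mitochondrial genes, and no test was made of the difference between them.

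mRNAs of RNA polymerase I, which makes the large ribosomal RNAs, were lower in 9 of 15 cases and higher in 0. *nuc1*, the largest subunit, had 2158 at 8 h and 12732 at 0 h (log2 ratio −2.56), *rpa2* stood at −2.46, *rpa49* at −2.25 and *rpc40*, shared with RNA polymerase III, at −2.20. Of 19 RNA polymerase III genes, a list that does not hold the shared *rpc40*, 8 were lower and 2 were higher. The lower ones were led by *rpc2* (−1.58), *sfc2* (−1.47), *rpc1* (−1.39) and *rpc34* (−1.35). The higher ones were *maf1*, the repressor of RNA polymerase III, with 1820.5 at 8 h and 396 at 0 h (up 4.60-fold), and *brf1*, a subunit of the initiation factor TFIIIB, with 1959 and 737 (up 2.66-fold). Its partner *bdp1* had 901 at 8 h and 572 at 0 h (0.66) and was not called. With equal summed totals more RNA polymerase III genes were higher than lower, so the direction of this list depends on the scaling. Of 39 tRNA modification genes 17 were lower, led by *pus1* (−2.67), *trm82* (−2.09), *trm2* (−1.98) and *trm732* (−1.80), and 2 were higher, SPBC21.03c (1.59) and *trm7* (1.45).

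**Figure D3:**
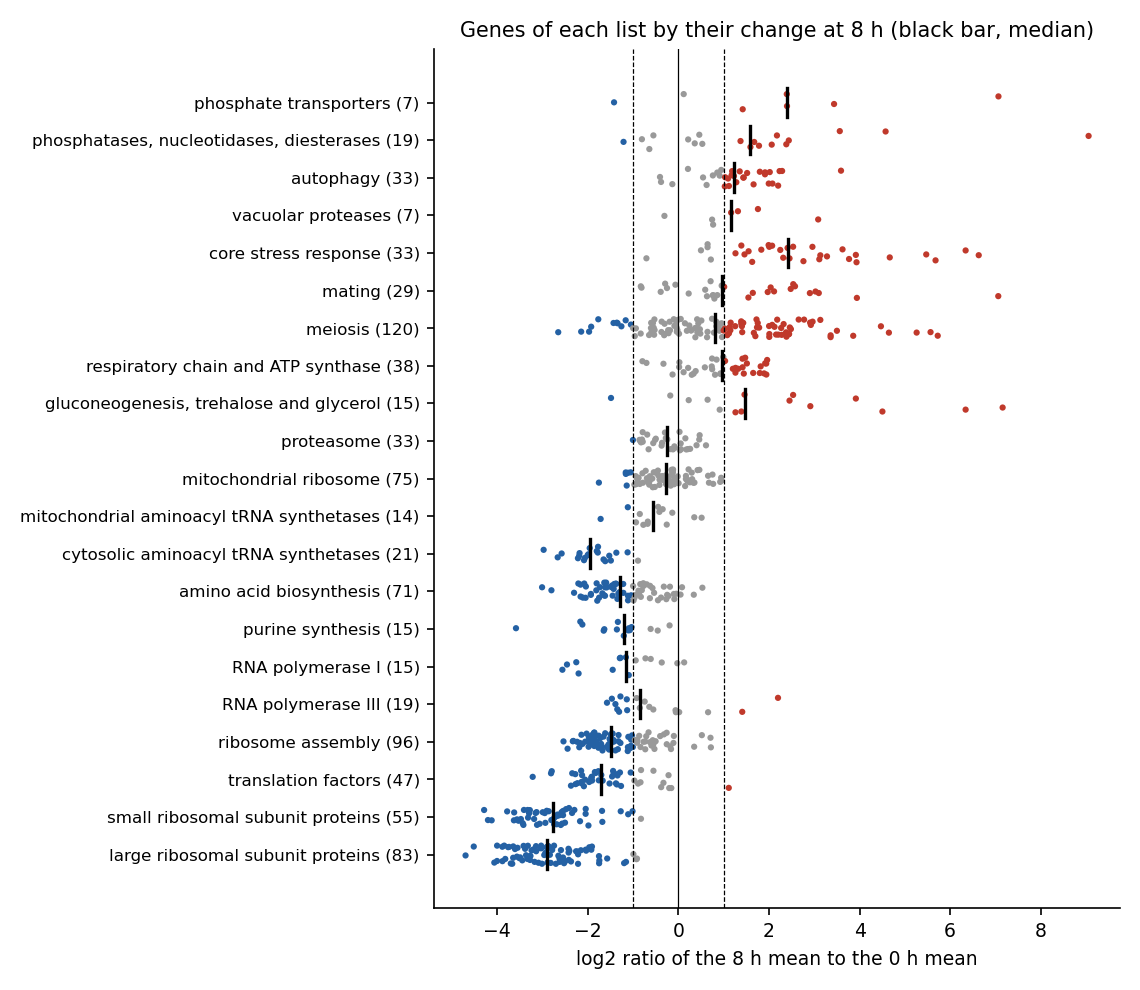
Log2 ratio of the 8 h mean to the 0 h mean for each gene (points) of 21 lists, with the number of genes compared in brackets, the list median as a black bar and dashed lines at 2-fold. Red points are called higher and blue points lower. The large and small ribosomal subunit lists have medians of −2.91 and −2.77, the cytosolic and mitochondrial synthetase lists overlap, with medians of −1.96 and −0.56, and the stress list has a median of 2.41.

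Most of the biosynthetic lists held more lower than higher genes. Of 71 amino acid biosynthesis genes 41 were lower and 0 higher (median log2 ratio −1.30), with *met14* (sulfate assimilation) at −3.01, *aro2* (chorismate synthase) at −2.80, *hom2* at −2.30 and *arg4* at −2.21. Of 15 purine synthesis and salvage genes 12 were lower. *apt1*, which salvages adenine, had 760.3 at 8 h and 9125 at 0 h (−3.59), followed by *ade1* (−2.16), *ade9* (−2.12) and *ade3* (−1.65). Of 9 pyrimidine synthesis and uracil salvage genes 3 were higher, 3 lower and 3 not called (*ura2* −0.88, *urk1* −0.38 and *fur4* −0.14). *ura3*, *ura1* and *ura5*, of the synthetic route, stood at −2.98, −2.29 and −1.53, whereas the uracil-regulated genes *urg1*, *urg2* and *urg3* were up 62.3-fold, 27.7-fold and 4.47-fold. *urg1* had 76084 at 8 h and 1221 at 0 h. The study reported *urg1* and *urg2* as raised also in wild-type cells moved from YES to ePMGT with phosphate. The part of the medium in the ratios here was not tested. Fatty acid synthase mRNAs were lower (*fas1* −1.65, *fas2* −1.76), as were 8 of 31 sterol and fatty acid genes in all, while the desaturase genes *erg32* (1.78) and *ole1* (1.63) were higher and the *erg32* paralogue *erg31* (−1.60) lower. *cut6*, for acetyl-CoA carboxylase, stood at −1.51. The lower share of the sterol and fatty acid list was somewhat above the 19.3% of all protein-coding genes. Its higher share was under the 15.3%.

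The other 2 of the 12 largest decreases were in metabolic genes. *pan5*, annotated as a dehydropantoate reductase, had 162 at 8 h and 2979.6 at 0 h, a log2 ratio of −4.20, and SPAC8E11.10, annotated as a sorbose reductase, had 695 and 10638, a log2 ratio of −3.94. At 4, 8 and 12 h *pan5* stood at −3.75, −4.20 and −4.27 and SPAC8E11.10 at −2.47, −3.94 and −3.77.

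Genes of nutrient scavenging and breakdown went both ways. Of 15 nitrogen and purine breakdown genes 6 were higher and 2 lower. *xan1* (xanthine dioxygenase) had 11789 at 8 h and 449.7 at 0 h, up 26.2-fold, *car1* (arginase) was up 14.1-fold, *uro1* (uricase) 8.91-fold and the ammonium transporter gene *amt1* 5.21-fold. The lower ones were *put2* (−1.50), of proline breakdown, and *amt2* (−1.21). Of 15 amino acid and peptide transporter genes 6 were higher, led by the oligopeptide transporter gene *opt3* (2189 at 8 h and 46.1 at 0 h, up 47.5-fold), *isp4* (7.32-fold), *isp5* (4.10-fold) and SPAC1039.01 (3.47-fold), and 2 were lower, *cat1* (−1.86) and *ptr2* (−1.59). *opt3* entered through its 8 h mean alone, and the list does not hold *nrg1*, an amino acid permease gene named below. Of 25 iron and copper genes 11 were higher, 3 of them with a 0 h mean under 100. The study reported iron regulon genes as raised also in wild-type cells moved from YES to ePMGT with phosphate. RefSeq annotates *str3* as a siderophore transporter gene and the study describes it as a heme transporter gene. It had library values of 207, 254 and 269 at 8 h and 4.22, 6.30 and 7.28 at 0 h. The libraries did not overlap, but *str3* entered through its 8 h mean alone. Such separation upwards was seen in 66.4% of all 539 genes with library values. The iron oxidase gene *fio1* was up 20.6-fold, the iron permease gene *fip1* 16.3-fold and the heme uptake gene *shu1* 17.5-fold, and *rli1* (−2.62), which acts in ribosome recycling, and *grx4* (−1.25) were lower.

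Stress genes were raised strongly. Of 33 core stress response genes 28 were higher and 0 lower, with a median log2 ratio of 2.41, and the list took 4.10% of counts at 8 h and 0.499% at 0 h. Of the 28, 2 had a 0 h mean under 100. *zym1*, for the metallothionein, had 48130.0 at 8 h and 485 at 0 h, up 99.2-fold. *fbp1*, for the gluconeogenic enzyme fructose bisphosphatase, which glucose represses, had 9188 and 113, up 81.2-fold, and *ddr48* and *lsd90* were up 51.2-fold and 44.4-fold. Heat shock chaperones divided into a raised and a lowered set. *hsp16* (114412 at 8 h and 4501 at 0 h, up 25.4-fold), *hsp9* (13.6-fold), *ssa1* (5.32-fold) and *hsp104* (4.02-fold) were higher, whereas 8 of 19 were lower, among them the ribosome-associated chaperone gene *sks2* (−2.54, 32462 at 8 h and 189097 at 0 h), *mas5* (−2.04), *ssc1* (−1.77) and *mge1* (−1.73). At a 4-fold limit the raised chaperones outnumbered the lowered. Of 23 antioxidant genes 12 were higher, led after *zym1* by *srx1* (3.13), *pmp20* (2.96) and *sod2* (2.33), and 2 were lower, *grx4* and the glutathione synthesis gene *gcs1* (−1.06). Of the 12, 1 had a 0 h mean under 100.

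Carbon metabolism lists differed in how many of their genes were called. Of 20 glycolysis and fermentation genes 4 were higher and 1 lower. The higher share was near the 15.3%, and the lower share under the 19.3%, of all protein-coding genes. *gpd3*, for glyceraldehyde 3-phosphate dehydrogenase, had 314119 at 8 h and 5914 at 0 h, up 53.1-fold, and took 1.54% of counts at 8 h, second to *pho1*, and 0.0218% at 0 h. *pdc201* (pyruvate decarboxylase) was up 46.1-fold, *eno102* (enolase) 30.2-fold and *pdc202* 3.56-fold, and *adh4* was lower (−2.51). Of 15 gluconeogenesis, trehalose and glycerol genes, a list that also holds the sugar hydrolase genes *mel1* and *inv1*, 10 were higher. Of these *mel1* alone entered only through its 8 h mean. *mel1* (melibiase) had 701 at 8 h and 4.90 at 0 h, up 143-fold, *inv1* (invertase) was up 22.7-fold and *tms1* 15.1-fold, whereas *gpd2* was lower (−1.49). Of 7 hexose transporter genes 2 were higher, *ght3* (3.22) and *ght6* (1.94), both of which entered through their 8 h mean alone, with 0 h means of 66.3 and 27.6, and the more abundant *ght5* (−0.61) and *ght8* (−0.37) were not called. Nuclear respiratory chain and ATP synthase genes were higher in 18 of 38 cases and lower in 0, with *cox8*, *cox9*, *qcr8* and *cox7* up 3.89-fold, 3.84-fold, 3.84-fold and 3.78-fold. In the TCA cycle 1 of 13 genes was higher, *mdh1* (2.04), a share under the 15.3% of all protein-coding genes, and the count was 3 with centring on the median protein-coding gene and 4 with equal summed totals.

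**Figure D4:**
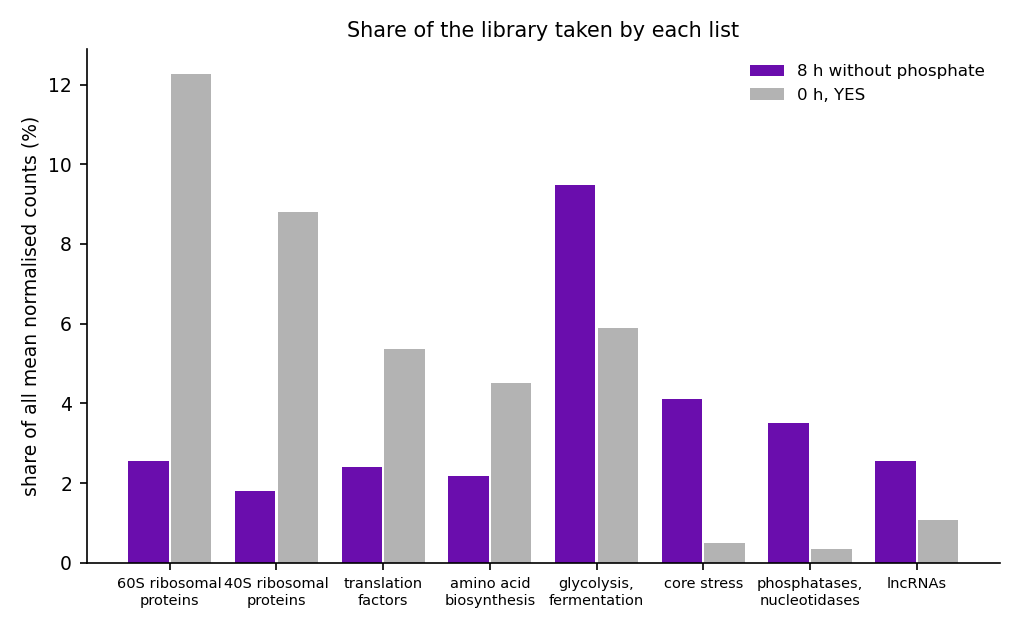
Share of all mean normalised counts (percent) taken by 8 lists at 8 h without phosphate (purple) and at 0 h in YES (grey). Large and small ribosomal subunit genes took 2.55% and 1.81% at 8 h, against 12.3% and 8.79% at 0 h, and phosphatase and nucleotidase genes took 3.52% at 8 h, against 0.337% at 0 h.

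Mating and meiosis genes, which in fission yeast answer to nitrogen starvation through the transcription factor Ste11, were partly raised. Of 29 mating genes 14 were higher, 2 of them, *mfm1* included, with a 0 h mean under 100, and 0 were lower. The mating pheromone genes *mfm1*, *mfm3* and *mfm2* had log2 ratios of 7.06, 3.94 and 3.10. *mfm1* had 1821 at 8 h and 13.6 at 0 h, up 134-fold, at 3.29, 7.06 and 7.98 on the log2 scale at 4, 8 and 12 h. The pheromone receptor gene *mam2* was up 8.16-fold, *mei2*, which promotes meiosis, 7.48-fold (10673 at 8 h and 1426 at 0 h) and *ste11* 4.33-fold (2765 and 639). The study reported *mfm1*, *mfm2*, *mam2* and *ste11* as lower in *ecl123*Δ than in wild-type cells with enough phosphate. Their ratios here thus start from the level of the mutant, and how wild-type cells would compare was not tested. Of 120 meiosis genes, a list by gene name that also holds RNAs first seen as meiotically upregulated, 52 were higher and 11 lower. Of the 52, 24 had a 0 h mean under 100 and entered through 8 h alone. The largest increases were in *mug147* (53.0-fold), *mug14* (47.5-fold), *mug108* (38.4-fold) and *meu3* (25.1-fold), the last of these a non-coding RNA. The lower ones were *meu18* (−2.65), *mug64* (−2.15), *mug94* (−1.97), *meu6* (−1.92), *spo15* (−1.77), *spo6* (−1.43), *mug176* (−1.36), *spo20* (−1.34), *meu16* (−1.26), *spo3* (−1.16) and *mug70* (−1.048). *spo6* had library values of 53.9, 61.7 and 66.1 at 8 h and 130.2, 151 and 209 at 0 h, without overlap. It entered through its 0 h mean alone, and 14.1% of all 539 genes with library values separated downwards.

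Of 47 mitosis and septation genes 4 were lower (*adg1* −1.17, *bir1* −1.17, *cut3* −1.06 and *imp2* −1.01) and 1, *cut23* (1.21), was higher. Both shares were under those of all protein-coding genes, 19.3% and 15.3%. The balance turned round with both other scalings. Of 31 S phase genes 6 were lower, led by the kinase gene *mik1* (−2.17), the replication genes *mcm3* (−1.47), *pcn1* (−1.26) and *pol1* (−1.24), and 1 was higher, *spd1* (1.70), the inhibitor of ribonucleotide reductase, so that the lower share was near the 19.3% of all protein-coding genes. Of 11 histone genes 2 were higher, *hhf2* (1.47) and *hhf3* (1.13), a share near the 15.3% of all protein-coding genes, and none of the 11 had a log2 ratio under 0. The higher count was 4 with centring on the median protein-coding gene and 6 with equal summed totals. Of 33 cell wall genes 4 were lower, *gas4* (−2.14), *pwp1* (−2.04, a gene placed in the list by name and annotated as a WD repeat protein), *bgs3* (−1.62) and *bgs4* (−1.19), and the glucosidase genes *exg1* (2.19) and *exg3* (2.02) were higher. Both shares of the cell wall list were under those of all protein-coding genes. With equal summed totals this list also held more higher than lower genes. Of 10 thiamine-repressed genes *gti1* (1.34) was higher and *pho4* (−1.21) and *thi20* (−1.19) were lower, a balance that turned round with equal summed totals. The higher share was under the 15.3%, and the lower share near the 19.3%, of all protein-coding genes.

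Of 79 genes for DNA-binding transcription factors 14 were higher and 6 lower, the higher ones a share near the 15.3% of all protein-coding genes. *stb3* had 17139 at 8 h and 788 at 0 h, up 21.8-fold. SPBC1348.12 (5.43-fold), *ste11* and *fil1*, a GATA-type factor gene (4.19-fold, 15483 at 8 h and 3699 at 0 h), followed. The lower ones were *grt1* (−1.57), *moc3* (−1.35), *thi1* (−1.31), *sak1* (−1.27), SPCC18.03 (−1.14) and SPBC16G5.17 (−1.13). *grt1* had library values of 71.4, 76.8 and 90.3 at 8 h and 219.5, 231 and 259 at 0 h, all below at 8 h. It entered through its 0 h mean alone, and 14.1% of all 539 genes with library values separated downwards.

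The remaining genes among the 12 largest increases come from other roles. SPAPB1A11.03, annotated as a cytochrome-type lactate dehydrogenase, had 1319 at 8 h and 7.32 at 0 h, up 180.3-fold, and its neighbour SPAPB1A11.02, an esterase or lipase gene, 579.8 and 6.64, up 87.3-fold. SPAPB1A11.03 was, like SPAPB1A11.02 and *urg1* and unlike the others of the 12, higher at 4 h than at 8 or 12 h, at 8.94, 7.49 and 6.98 on the log2 scale at 4, 8 and 12 h. *hhy1*, a hydrolase gene, was up 86.0-fold (4689.8 at 8 h and 54.5 at 0 h), *hry1*, for a cation-binding protein, 59.7-fold, and SPBPB21E7.10, of unknown function, 119-fold. SPBPB21E7.10 had library values of 148, 173 and 180.1 at 8 h and 0, 1.04 and 3.17 at 0 h, so its ratio rests on very few 0 h reads.

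Several strongly raised genes lay side by side. Of 306 protein-coding genes that were at least 4-fold higher and have a place in the annotation, 85 (27.8%) had a neighbouring protein-coding gene that was also at least 4-fold higher, whereas 457 of the other 4611 (9.91%) had such a neighbour. For genes at least 4-fold lower, 40 of 263 (15.2%) had a neighbour of the same kind, and 452 of the other 4654 (9.71%) did. There were 9 runs of 3 or more adjacent protein-coding genes that were all at least 4-fold higher, holding 37 genes. Several of the 37 had 0 h means under 100 and entered through their 8 h mean alone. The neighbour and run counts thus hold genes selected for being high at 8 h, and were not taken without them. The run with *pho84* and *pho1* went on through *fub2* (32.5-fold) and *nrg1*, an amino acid permease gene (6.23-fold). *fub2*, annotated as a proteasome regulator of the PI31 family, had 862 at 8 h and 26.5 at 0 h.

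A run of 5 held *ght3*, *shu1*, *str3*, *hhy1* and *isp3*, with log2 ratios from 3.22 to 6.43, and another held *hsp3105*, *fip1*, *fio1*, *dal2* (allantoicase) and SPAC1F7.10, from 2.66 to 5.53. Genes of the iron and copper list thus stood in both of these runs. The run from *eno102* through SPBPB21E7.02c, SPBPB21E7.10 and SPBPB21E7.11 to *cmt2* had log2 ratios of 3.59 to 6.90, and that of *wtf21*, *amt1*, SPCPB1C11.02, SPCPB1C11.03 and *xan1* from 2.18 to 4.71, with 3 of its 5 genes annotated as transporters. SPAC869.09, *pcm2*, *mel1* and *hry1* formed a run of 4, from 3.97 to 7.16. All 4 had 0 h means under 100. So did *ght3*, *shu1*, *str3*, *hhy1*, *hsp3105*, SPBPB21E7.02c, SPBPB21E7.10, SPBPB21E7.11, SPCPB1C11.02, *fub2* and *wtf16* of the other runs. The runs of 3 were *urg2*, *urg3* and *urg1*, then *fbp1*, *wwm3* and *wwm2*, and *dao1*, *wtf16* and *plb5*. Gene order is that of the RefSeq assembly ASM294v3, and the authors counted on ASM294v2.

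Non-coding RNAs shifted upwards as a class. Of 886 lncRNAs compared 466 were higher (52.6%) and 52 lower (5.87%), with a median log2 ratio of 1.083, and the 1391 listed lncRNAs took 2.55% of counts at 8 h and 1.07% at 0 h. Part of this goes with level. Of the 886, 281 had a 0 h mean under 100 and could enter only through 8 h, and 235 of them were higher. These 281 could not be called lower, and all 52 lower lncRNAs were among the 605 with a 0 h mean of at least 100. Among lncRNAs with a 0 h mean of 100 to 1000, 229 of 580 were higher (39.5%), and among protein-coding genes of the same 0 h range 385 of 1128 were higher (34.1%). At a matched 0 h level the classes were thus much closer than overall.

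*fbp1-ot2*, an RNA from the regulatory region upstream of *fbp1*, had library values of 124, 133 and 210.2 at 8 h and 0, 1.05 and 3.12 at 0 h, with means of 156 and 1.39. It moved with the *fbp1* mRNA (6.34) beside it. SPNCRNA.935, annotated as a possible alternative UTR, had 20513 at 8 h and 237 at 0 h, up 86.7-fold, SPNCRNA.1137 was up 69.9-fold, SPNCRNA.603, between *ght3* and *shu1*, 59.4-fold, and SPNCRNA.940 53.1-fold. The nearest gene of SPNCRNA.935 on its own strand, *per1*, was up 3.28-fold, and that on the other strand, *lys1*, was lower (−2.16). The nearest of SPNCRNA.940 on the other strand, SPAC4H3.08, was up 47.3-fold, and that on its own strand, *rdl2*, was not called (0.67). Beside SPNCRNA.1137 neither *rpn8* (−0.79) nor *ubp16* (−0.55) was called. SPNCRNA.1075 had 279.7 at 8 h and was listed at 0 at 0 h, at least 267-fold higher against a floor of 3 reads over the 0 h group (a mean of 1.048).

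The largest decreases were in SPNCRNA.1192 (28.5 at 8 h and 437 at 0 h, log2 ratio −3.94), SPNCRNA.1690 (−3.79), SPNCRNA.1461 (−3.64), SPNCRNA.1073 (−3.61) and SPNCRNA.1096 (−3.04). SPNCRNA.1073 had library values of 11.4, 19.6 and 19.7 at 8 h and 197, 199.7 and 221 at 0 h, without overlap. It entered through its 0 h mean alone, and 14.1% of all 539 genes with library values separated downwards. SPNCRNA.1690 had 123 at 8 h and 1697 at 0 h and lies opposite *cao2*, an amine oxidase-like gene that was up 18.5-fold, so the RNAs of the opposite strands moved apart. The genes opposite SPNCRNA.1192 (*wtf11* 0.16), SPNCRNA.1461 (*pfd1* −0.04) and SPNCRNA.1096 (SPCC1884.01 0.82) were not called. Over the 629 lncRNAs that overlap a protein-coding gene on the opposite strand this was not the rule. Of the 330 that were higher, 56 had a partner that was higher and 61 a partner that was lower, and the median log2 ratio of the partners was −0.14, against 0.11 for partners of the lncRNAs that were not higher. The 213 lncRNAs with no overlapping coding gene in the comparison were higher in 53.1% of cases, close to the 52.5% of those opposite a gene. These shares and counts include lncRNAs that entered through 8 h alone, which were mostly higher. They were not compared without such lncRNAs.

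Small structural RNAs, which carry no poly(A) tail when mature, were also found among the poly(A)+ reads. The snRNAs and snoRNAs compared held more higher than lower genes. All 3 snRNAs compared, of 6 listed, were at least 4-fold higher, but all 3 had 0 h means under 100 and so entered through 8 h alone, as did 417 genes in all, of which 86.3% were called higher. *snu1* (U1) had library values of 249.9, 256 and 368 at 8 h and 7.28, 9.45 and 14.8 at 0 h, *snu5* (U5) 149, 230.2 and 277 at 8 h and 9.45, 10.4 and 14.8 at 0 h, and *snu2* (U2) 115, 159.5 and 165 at 8 h and 13.5, 19.0 and 29.4 at 0 h. No 8 h library overlapped a 0 h library in any of the 3. The same separation upwards was seen in 66.4% of all 539 genes with library values, many of which also entered through 8 h alone. Of 22 snoRNAs 11 were higher, 2 of them with a 0 h mean under 100, and 2 were lower, both with an 8 h mean under 100. Of all genes compared, 21.3% were higher and 17.1% lower. The U3 genes *snu32* and *snu3* were up 15.9-fold and 10.8-fold, *snoU14* 8.82-fold, *snoR38* 5.84-fold and *snR95* 5.22-fold, and the lower ones were *snR33* (−1.73) and *snR51b* (−1.22). At 4 h the U3 genes had stood at 0.96 and 0.19 on the log2 scale, below their 8 h values of 3.99 and 3.43. Of 7 rRNA entries compared 2 were higher, SPRRNA.32 (3.28) and SPRRNA.31 (3.01), and 1, SPRRNA.47 (−1.14), was lower. Both higher entries had 0 h means under 100. The rRNA shares, 28.6% higher and 14.3% lower, were near those of all genes compared. Their balance changed with a mean of at least 100 at both times. None of the 164 tRNA genes reached a mean of 100. All 11 mitochondrially encoded genes were listed at 0 at both times, so whether they were counted at all is unknown.

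**Figure D5:**
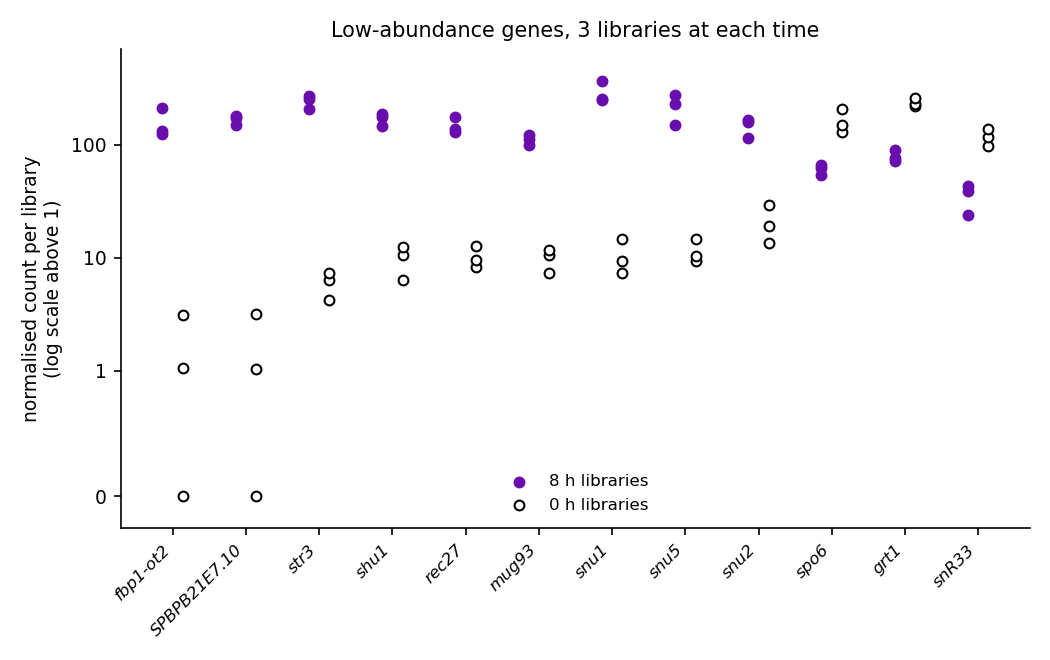
Normalised counts in each of the 3 libraries at 8 h (purple, left) and the 3 libraries at 0 h (open, right) for 12 low-abundance genes whose library values could be worked out from the means, on a scale that is linear under 1 and logarithmic above. The 9 genes on the left lie higher and the 3 on the right lower in all 8 h libraries, without overlap. The 12 are chosen examples. Several of the 9 entered through their 8 h mean alone, and the 3 through their 0 h mean alone. Of all 539 genes with library values, 66.4% separated upwards and 14.1% downwards.

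Library values could be worked out for 539 genes, those with means of at most 300 at both times, or 9.19% of the genes compared. Of the 539, 246 were called higher (45.6%), and in 244 of these all 3 libraries at 8 h were above all 3 at 0 h. All 37 genes called lower (6.86%) had their 3 libraries at 8 h below those at 0 h. Such separation was common at smaller differences too. It was seen upwards in 66.4% and downwards in 14.1% of the 539 genes, and in 153 of the 256 that were not called.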

How the data were processed

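Poly(A)+ libraries (stranded TruSeq kit, Illumina NovaSeq, paired ends) were made from 3 cultures per time point. Per the labels and the study's methods, the authors aligned reads with HISAT2 2.1.0 to ASM294v2, counted exons with HTSeq 0.10.0 and normalised with DESeq2. Whether strand was used in counting is unknown from the sources at hand. Each of the 6 deposited tables pairs a starvation time with 0 h and lists 6988 genes. The columns used are the authors' deposited mean normalised counts (a signal value, counts over size factors, averaged over the 3 libraries). The 0 h mean is identical in all 6 tables, so the time points share 1 scaling. The 6 other value columns per table hold the authors' own comparisons (overall mean, fold change, its error, statistic and p-values) and were not used.

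Here the ratio of the 8 h to the 0 h mean was taken for genes with a mean of at least 100 at either time and called at 2-fold, without a pseudocount and without a test. Names and products came from RefSeq (ASM294v3), matched by locus tag (6836) or synonym (12), with 140 unmatched. Its coordinates served only for gene order and overlap. The 50 gene lists follow symbols, product names and known roles. The members and lists were chosen with earlier results of these data known. Named genes are up to 4 per list with the largest change in the list's main direction, those called the other way, the PHO, Ecl, TFIIIB and mating genes, and the 12 coding and 5 non-coding genes with the largest change each way. In addition, all called phosphatases, the genes of the runs, duplicated ribosomal gene pairs, *atg8*, *asp1*, *aps1*, *plt1*, *ght5*, *ght8*, *ura2*, *urk1*, *fur4*, *fas1*, *cut6*, the neighbours of non-coding RNAs and SPNCRNA.1075 were named after their values were seen.

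Means keep at most 10 significant digits, floating-point tails aside, and are sums of whole reads over size factors, so library values were solved for where both means were at most 300 and exactly 1 solution existed, an addition made after seeing the data, checked on simulated data. This covered 9.19% of the genes compared, under the 95% set for a test over libraries, so no test was run. Alternatives were no minimum, a minimum of 1000, a pseudocount of 10, 2 other scalings, a 4-fold limit and a mean of at least 100 at both times (the last added later). Python 3.11.15, pandas 2.3.3, numpy 2.4.6 and matplotlib 3.10.9 were used.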

Additional observations from a re-analysis of the deposited data

How the results depend on the processing

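The 1249 higher and 1003 lower genes became 527 and 277 at a 4-fold limit. With a minimum of 1000 the balance turned to 616 higher and 903 lower, so that 40.6% of calls were higher (55.5% as reported), and with a mean of at least 100 at both times it turned to 889 and 961 (48.1%). With equal summed totals the counts were 1827 and 579 (75.9%). With ratios centred on the median protein-coding gene the counts were 1466 and 782. Without a minimum they were 1715 and 1078, and with a pseudocount of 10 they were 1225 and 989. Of the 50 gene lists 21 had 0.5 or more of their members called in 1 direction, and 6 did at the 4-fold limit. The side with more calls changed with equal summed totals in 6 lists (proteasome, mitochondrial ribosome, RNA polymerase III, mitosis and septation, thiamine-repressed, cell wall), with centring in 2 of these (mitochondrial ribosome, mitosis and septation), at 4-fold in 2 lists (RNA polymerase III, heat shock chaperones), and with a mean of at least 100 at both times in 1 list (rRNA). A higher limit keeps fewer genes by construction, and a change of scaling moves all ratios by the same amount. For the other shifts the cause was not tested.

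No paired analysis was possible because the columns hold the mean of 3 libraries with no replicate numbers, and library values were solved for 9.19% of the genes only. For the same reason leaving out a library and the limma fit over libraries were not run, and the size of culture-to-culture spread is unknown for the abundant genes. At a mean of 100 the counting error alone was 5.32% at 8 h and 5.91% at 0 h.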
